A study of Macaca mulatta with 16 samples.

Results

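The renin-angiotensin-aldosterone system of the heart was followed through 5 genes: angiotensinogen (AGT), angiotensin-converting enzyme (ACE), glutamyl aminopeptidase (ENPEP), the type 1 angiotensin II receptor (AGTR1) and the mineralocorticoid receptor (NR3C2). They were taken by gene symbol, 1 row each, from the 19425 rows of the deposited gene count table, and all 5 passed the filter on low counts that left 14165 genes for testing. The table came from total RNA-seq of formalin-fixed, paraffin-embedded (FFPE) cardiac tissue of 8 rhesus macaques (Macaca mulatta), from which RNA was taken by 2 extraction methods. The question was whether the extraction method changed what sequencing detects in archived heart tissue. Each animal gave 1 library per method, 16 libraries in all.

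Method QE (8 libraries) was the Qiagen AllPrep DNA/RNA FFPE kit with a changed ethanol wash once the paraffin had been dissolved. Method BL (8 libraries) was the CELLDATA RNAstorm FFPE kit from Biotium with a changed lysis step. The animals, named r12075, r15045, r15089, r16010, r16116, rh2740, rh2957 and rhbi30 after their Method QE libraries, had been perfused with saline and then paraformaldehyde, and the blocks were stored at room temperature before extraction. The study describes the animals as a model of pressure overload of the right ventricle. Whether all 8 carried this condition, and their age, sex and the heart chamber sampled, were not known here. A difference between animals therefore cannot be told apart from a difference in condition or between the pieces of tissue sampled. In bulk tissue, fewer cells of a type and less RNA per cell cannot be told apart either.

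In this pathway AGT is the protein substrate from which angiotensin I is cut, and ACE trims angiotensin I to angiotensin II. Angiotensin II constricts vessels and promotes growth and fibrosis in the heart through AGTR1, while ENPEP, an aminopeptidase, removes its first residue to give angiotensin III. Aldosterone, made in the adrenal gland in response to angiotensin II, acts through NR3C2, a nuclear receptor that also binds cortisol with high affinity and is related to the glucocorticoid receptor NR3C1.

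The sequences below are the stretches of these genes that do this work, read 5′ to 3′ along the coding strand from the RefSeq transcripts of the Mmul_10 genome. In AGT the 30 bases encode angiotensin I, and the capitals mark the codons of angiotensin II, which remain once ACE has removed the rest. In ACE and ENPEP the capitals mark the codons of the zinc-binding motif of the active site, of which ACE has a copy in each of its domains. In NR3C2 and NR3C1 the capitals mark the P box, the part of the first zinc finger that reads the hormone response element.
AGT: GACCGGGTGTACATACACCCCTTCcacctc
ACE, exon 8: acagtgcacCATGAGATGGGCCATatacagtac
ACE, exon 20: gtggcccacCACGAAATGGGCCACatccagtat
ENPEP: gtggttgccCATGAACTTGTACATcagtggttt
NR3C2: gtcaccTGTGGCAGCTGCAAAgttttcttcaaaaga
NR3C1: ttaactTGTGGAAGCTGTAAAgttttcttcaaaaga
The AGT stretch lies at chr1:18287778-18287807 on the plus strand, in exon 2 of 5. The ACE stretches lie at chr16:59937250-59937282 and chr16:59948531-59948563 on the plus strand, in exons 8 and 20 of 25. The ENPEP stretch is split between exons 5 and 6 of 20, so its span of chr5:108861767-108862235 on the plus strand holds an intron. The P box of NR3C2 lies at chr5:145871184-145871219 and that of NR3C1 at chr6:140727060-140727095, both on the minus strand and in exon 3 of 9. The 2 ACE stretches differed at 10 of 33 bases and at 2 of 11 encoded residues. The receptor stretches differed at 5 of 36 bases and at 1 of 12 residues, and the P box codons encode the same residues in both.

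The rows of the table did not all match the RefSeq genes of the same name, which bears on what each count holds. The ENPEP row (chr5:108828791-108911357, plus strand) and the NR3C2 row (chr5:145686073-146048994, minus strand) covered 100% and 99.4% of the RefSeq gene, with no other protein-coding gene inside. The ACE row (chr16:59931879-60042205, plus strand) ran past RefSeq ACE, which ends at 59953413, and took in KCNH6, a potassium channel gene, and DCAF7, a gene for a WD-repeat adaptor protein, on the same strand. Neither has a row of its own in the table used here, so values given for ACE may hold reads of all 3 genes, in shares that were not tested. The AGT row (chr1:18234632-18296759, plus strand) began upstream of RefSeq AGT, which starts at 18283971, and overlapped 12.9% of CAPN9 on the opposite strand. The AGTR1 row (chr2:50857740-50869347, plus strand) covered 25.9% of the RefSeq gene and ended inside the exon (50868221-50870238) that all 12 RefSeq transcripts share. Whether the counting used strand is not given in the sources used here.

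**Figure D1:**
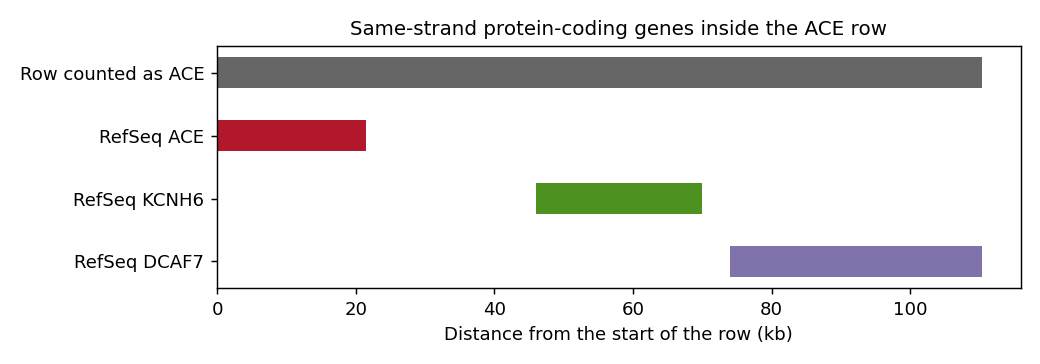
Map of the ACE row of the count table against RefSeq, with distance from the start of the row in kb on the x axis; each bar is 1 interval on the plus strand. The row (gray) spans RefSeq ACE, KCNH6 and DCAF7, so the count of the ACE row may hold reads of all 3 genes.

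The counts summed to between 19291593 and 25690001 per library with Method QE and between 14999179 and 25807216 with Method BL, and the genes encoded in the mitochondrial genome took 27.4% to 44.4% and 20.5% to 39.3% of them. Of 12 cardiomyocyte markers, 9 had a row and none of these was at 0 in any library, their summed level lying between 22523 and 33901 CPM (counts scaled to a common library size) with Method QE and between 12108 and 32193 CPM with Method BL. None of 11 marker lists for cell types of the heart differed between methods after adjustment (exact paired sign-flip test, 1 list at an unadjusted p under 0.05, the ventricular one, p = 0.0391, BH-adjusted p = 0.258). Levels below are CPM scaled by TMM, a method that evens out differences in library composition. The p-values between methods are judged against how the difference between the libraries of an animal varied over animals. Those between animals are judged against the spread left once animal and method are in the model. Both kinds come from edgeR's quasi-likelihood test with animal and method in the model, adjusted over all 14165 genes by Benjamini and Hochberg unless stated. A gene was called at an adjusted p under 0.05.

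None of the 5 genes differed between Method QE and Method BL, against 2.14% of all genes tested, 303 of 14165 (37 to 355 when 1 animal was left out, with 44 without r15089, 59 without r16010, 74 without r16116, 37 without rh2740, 186 without rhbi30 and 198 without r12075). The same count of 0 was found with limma-voom and with DESeq2, and 0 of the 5 had an unadjusted p under 0.05 in edgeR, against 18% of all genes. The estimated changes lay between -0.06 and 0.01 on the log2 scale. Since a p that misses the threshold does not show that the methods act alike, the 95% interval is given for each gene. NR3C2 and ACE had the narrowest intervals and AGTR1 the widest.

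AGT, the substrate of the pathway, had a lowest, median and highest level of 4.00, 8.89 and 13.2 CPM with Method QE, against 4.62, 8.90 and 12.1 CPM with Method BL. The 2 methods overlapped over nearly their whole range, and 4 of 8 animals were higher with Method QE. The log2 change, Method QE over Method BL, was 0.01 (SE 0.15, 95% interval -0.32 to 0.34, adjusted p = 0.989). On the log2 scale, the widest gaps within an animal were in r15045 and r16116. Animal r15045 had 8.77 CPM under Method QE and 4.62 CPM under Method BL, and r16116 had 4.82 and 7.86 CPM in the same order. These gaps went in opposite directions.

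The ACE row had a lowest, median and highest level of 93.2, 118 and 142 CPM with Method QE, against 114, 122 and 138 CPM with Method BL. It was the most even of the 5 across libraries, and the range of Method BL lay inside that of Method QE. Under Method QE, rhbi30 (93.2 CPM) and r12075 (110 CPM) lay below every Method BL library and r16116 (142 CPM) above every one. The Method QE libraries of rhbi30 and r12075 are those with the prefix 2- in their names, and the part of this label was not tested. The log2 change was -0.06 (SE 0.06, 95% interval -0.19 to 0.07, adjusted p = 0.619), and 3 of 8 animals were higher with Method QE.

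ENPEP, which turns angiotensin II into angiotensin III, had a lowest, median and highest level of 7.61, 14.3 and 38.7 CPM with Method QE, against 8.68, 11.9 and 43.8 CPM with Method BL. In both methods the highest library was that of animal rh2957, which stood clear of the next library, at 24.4 CPM with Method QE and 25.7 CPM with Method BL. The log2 change between methods was -0.05 (SE 0.11, 95% interval -0.29 to 0.20, adjusted p = 0.868), and 4 of 8 animals were higher with Method QE.

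AGTR1, the receptor for most effects of angiotensin II, was the scarcest of the 5, with a lowest, median and highest level of 0.265, 1.75 and 2.32 CPM with Method QE, against 0.630, 1.46 and 2.37 CPM with Method BL. Its counts per library ranged from 5 to 54 with Method QE and from 9 to 58 with Method BL. The lowest count, 5 in animal r16116 under Method QE, has an exact Poisson 95% interval of 1.62 to 11.7, whereas the Method BL library of that animal had 27 (interval 17.8 to 39.3); such intervals cover counting error only. The log2 change of AGTR1 was -0.02 (SE 0.32, 95% interval -0.72 to 0.68, adjusted p = 0.985). Of the 8 animals, 6 were higher with Method QE.

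NR3C2, the receptor for aldosterone, had a lowest, median and highest level of 35.9, 43.0 and 58.9 CPM with Method QE, against 32.8, 49.4 and 65.3 CPM with Method BL. The methods overlapped and 3 of 8 animals were higher with Method QE. The log2 change was -0.03 (SE 0.07, 95% interval -0.18 to 0.11, adjusted p = 0.836).

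**Figure D2:**
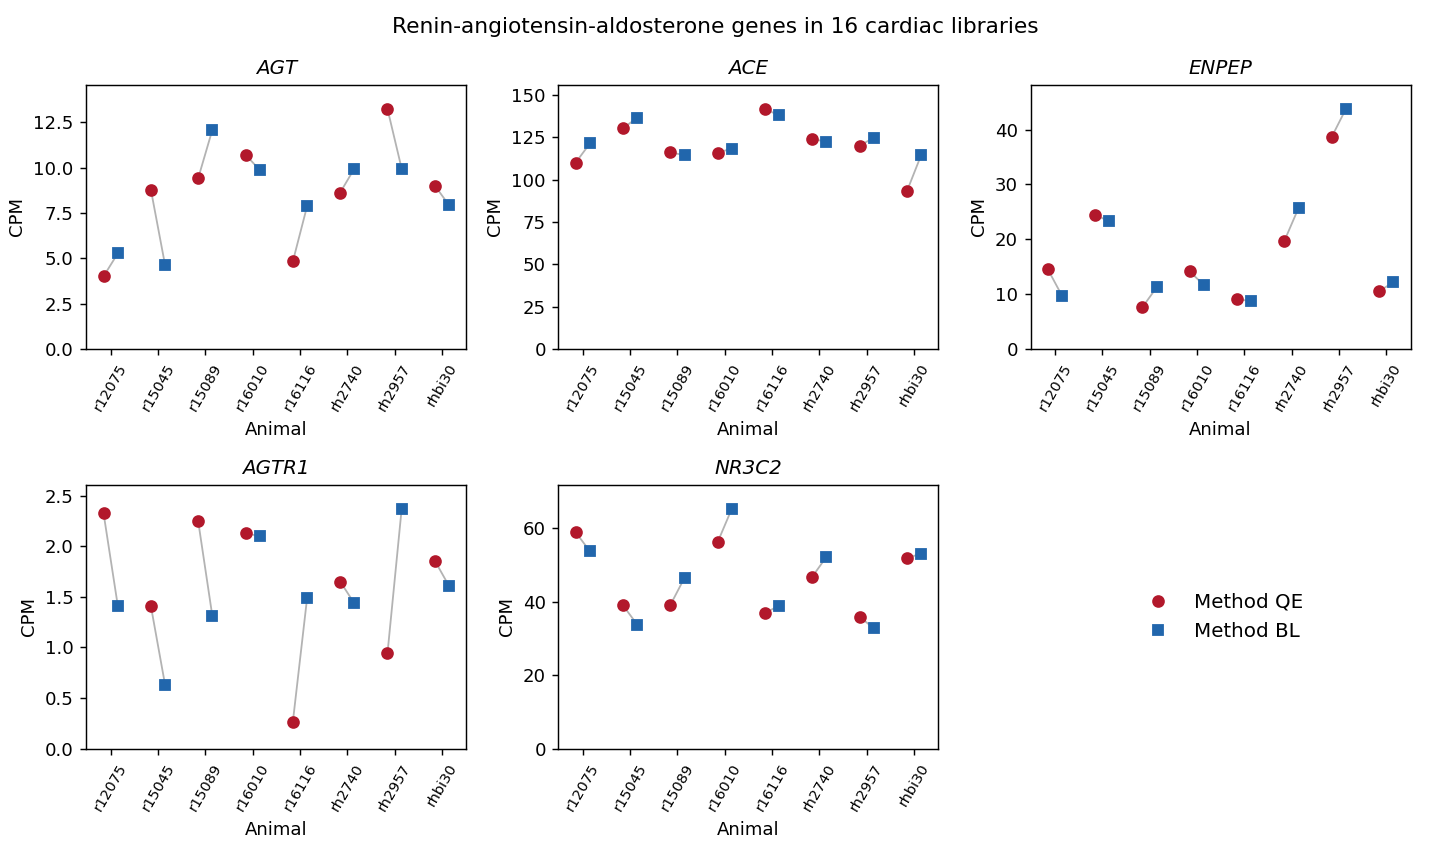
CPM of AGT, ACE, ENPEP, AGTR1 and NR3C2 (y axis, from 0) in each of the 8 animals (x axis), with the Method QE library (red circle) left of the Method BL library (blue square) and a line joining the libraries of 1 animal. ENPEP was highest in animal rh2957 in both libraries, at 38.7 and 43.8 CPM, while the 2 libraries of an animal often lay far apart for AGTR1.

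Set per length of transcript, the 5 genes could be ordered among themselves. With the longest RefSeq transcript as the length, NR3C2 averaged 7.78 ± 1.56 CPM per kb with Method QE and 8.03 ± 1.92 with Method BL, ENPEP 4.70 ± 2.78 and 4.96 ± 3.29, and AGT 3.32 ± 1.15 and 3.27 ± 0.983 (SD, n = 8 each). AGTR1 had the lowest mean, at 0.286 ± 0.127 and 0.276 ± 0.0937 CPM per kb, or 0.787 ± 0.349 and 0.758 ± 0.258 with its shortest mRNA. The ranges over libraries overlapped between NR3C2 and ENPEP and between ENPEP and AGT, so the order of these neighbours is within their spread. The place of AGTR1 depends on the length assumed as well, since both lengths used include bases outside its row. The ACE row stood at 23.8 ± 2.88 and 24.8 ± 1.81 CPM per kb on the length of ACE alone, but at 7.85 ± 0.947 and 8.18 ± 0.598 on the summed length of ACE, KCNH6 and DCAF7, close to NR3C2. The place of ACE in the order therefore depends on which length is used.

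Differences between animals were tested in the same fit. Of the 5 genes, ENPEP, NR3C2 and AGT differed between animals, against 31.5% of all genes tested, 4461 of 14165. ENPEP did so with an adjusted p of 5.06e-05, rank 187 of 14165 genes by F statistic, and NR3C2 with 0.00262, rank 1083. AGT was near the threshold, with an adjusted p of 0.0454. ACE (adjusted p = 0.144) and AGTR1 (adjusted p = 0.650) were not called.

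ENPEP averaged 41.2 CPM over the 2 libraries of animal rh2957, 23.9 in r15045, 22.7 in rh2740, 12.9 in r16010, 12.1 in r12075, 11.3 in rhbi30, 9.42 in r15089 and 8.90 in r16116. The highest animal was thus 4.63-fold above the lowest, and rh2957, r15045 and rh2740 lay above the other 5 in both methods. Without animal rh2957 the call held, with an adjusted p of 0.00200. In the 5 animals with a Method BL library name in B it was 0.00830, also in edgeR. The Method BL library names end in B or R, and what these endings mean is not given in the sources used here.

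NR3C2 ran in another order of animals. It averaged 60.8 CPM in r16010, 56.3 in r12075, 52.5 in rhbi30, 49.5 in rh2740, 42.8 in r15089, 37.9 in r16116, 36.4 in r15045 and 34.3 in rh2957, a 1.77-fold range. Animals r16010, r12075 and rhbi30 were the 3 highest in both methods, and rh2957 the lowest in both, while neighbours in this order differed by less than the gap between the 2 libraries of an animal in several cases. Leaving out 1 animal at a time kept the adjusted p between 0.00268 and 0.0122, and in the 5 animals with a Method BL library name in B it was 0.0163.

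AGT averaged 11.6 CPM in rh2957, the highest, and 4.63 CPM in r12075, the lowest, a 2.50-fold range. Its call between animals was lost with limma-voom (adjusted p = 0.0645) and without any 1 of animals r12075 (0.180), r15089 (0.0637), r16010 (0.0681), rh2740 (0.0523) or rh2957 (0.0656), all in the edgeR fit. The ACE row had a 1.35-fold range between animals, highest in r16116 (140 CPM) and lowest in rhbi30 (104 CPM), and AGTR1 a 2.42-fold range.

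The agreement of the 2 libraries of an animal was also measured as a correlation of log2 CPM over the 8 animals, with an exact permutation p over all pairings of the animals and adjustment over the 5 genes. The correlation was 0.90 for ENPEP (Spearman rho 0.76, exact p = 0.00285, adjusted p = 0.0125), 0.88 for NR3C2 (rho 0.95, exact p = 0.00690, adjusted p = 0.0125) and 0.82 for the ACE row (rho 0.88, exact p = 0.00752, adjusted p = 0.0125). The exact p of rho for these 3 was 0.0368, 0.00114 and 0.00724, adjusted to 0.0613, 0.00570 and 0.0181. It was 0.53 for AGT (rho 0.52, exact p = 0.148 and 0.197, adjusted p = 0.185 and 0.246) and -0.06 for AGTR1 (rho -0.29, exact p = 0.836 and 0.501, the same after adjustment). The median over all genes was 0.50. With 1 animal left out, the call of ENPEP was lost without rh2957 (r 0.79) and that of the ACE row without r15045 (0.82) or r16116 (0.72), while AGT was called without r15045 (0.80).

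Without the 2 animals farthest from the median the correlation was 0.86 for ENPEP, 0.84 for NR3C2 and 0.76 for the ACE row, and none passed the adjustment over the 6 remaining animals (exact permutation test, adjusted p = 0.104, 0.104 and 0.146). For AGT it was 0.36 and for AGTR1 0.68 (adjusted p = 0.439 and 0.168). For the 5 animals with a Method BL library name in B and the 3 with one in R no correlation is given, as each set has fewer than 6 animals.

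The wider pathway was described by a list of 46 genes for the formation and breakdown of angiotensins, their receptors, mineralocorticoid action and hormone-responsive targets. Of these, 8 had no row in the table used here, among them CMA1 (chymase) and CYP11B2 (aldosterone synthase), and 5 fell below the filter. Of the 33 tested, 0 differed between methods (5 at an unadjusted p under 0.05; 0 with limma-voom and with DESeq2), against 2.14% of all genes, or 18% at an unadjusted p under 0.05. Their median log2 change was -0.01, against 0.00 for all genes, and 16 of 33 lay above 0.

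**Figure D3:**
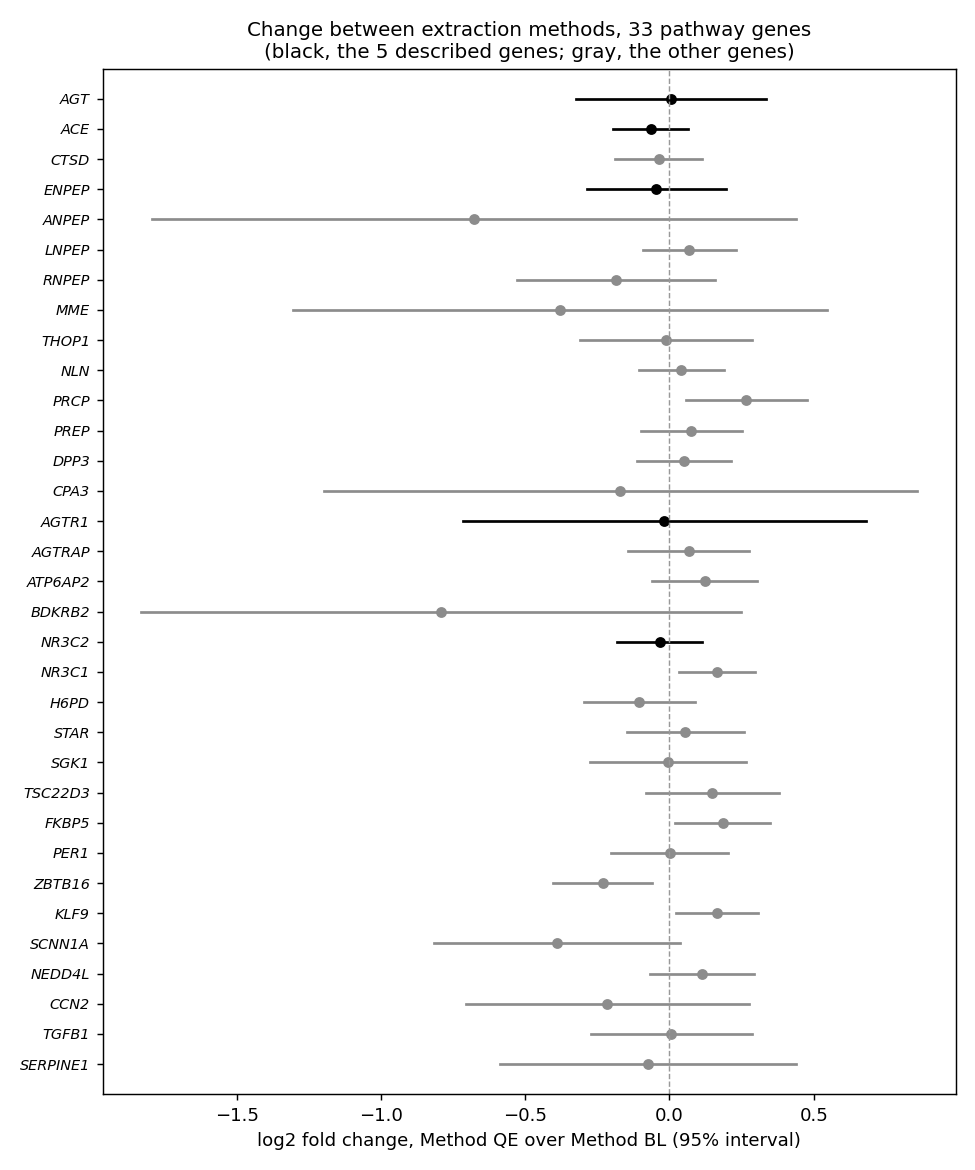
log2 fold change of Method QE over Method BL (x axis) with its 95% interval for the 33 pathway genes tested (y axis, AGT at the top), with the 5 genes described here in black and the others in gray. The intervals of all 5 span 0, and that of AGTR1, from -0.72 to 0.68, is the widest of the 5.

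Among the enzymes and receptors around the 5 genes, AGTR2, the second angiotensin II receptor, had between 0 and 12 counts per library, and HSD11B2, which inactivates cortisol in aldosterone target tissues such as the kidney, had between 0 and 10; both fell below the filter. ATP6AP2, an accessory protein of the vacuolar proton pump, averaged 30.2 ± 3.38 CPM with Method QE and 27.9 ± 4.71 CPM with Method BL, and SGK1, a kinase induced by aldosterone and by glucocorticoids, 19.1 ± 5.13 and 18.9 ± 3.96 CPM (SD, n = 8 each). Neither passed the test between methods or between animals.

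NR3C1, the glucocorticoid receptor, averaged 133 ± 7.30 CPM with Method QE and 119 ± 13.4 CPM with Method BL (SD, n = 8 each). Its log2 change was 0.17 (SE 0.06, adjusted p = 0.181), with 8 of 8 animals higher under Method QE. The unadjusted p of NR3C1 in edgeR was 0.0188, and 18% of all genes tested had one under 0.05. The ratio of NR3C2 to NR3C1 counts does not depend on how libraries are scaled. On the log2 scale it had a mean of -1.56 ± 0.33 with Method QE and -1.37 ± 0.30 with Method BL (SD, n = 8 each), a mean difference of -0.20 (SD 0.12) within animals. It was lower under Method QE in 8 of 8 animals (2-sided exact paired sign-flip permutation test, p = 0.00781, the smallest 8 pairs can give, adjusted to 0.0156 over 2 ratios computed, 1 of which is not reported here). The difference was between -0.41 and -0.01, with -0.16, -0.41 and -0.21 in the 3 animals with a Method BL library name in R and -0.01 to -0.29 in the 5 with one in B. The ratio was not set against those of gene pairs at large, so whether the difference is particular to these receptors was not tested. The ventricular and cardiomyocyte marker scores were also higher under Method QE in 7 of 8 animals, and the mesothelial score in 1 of 8. None of these scores passed the adjustment between methods, and their part in the ratio was not tested.

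**Figure D4:**
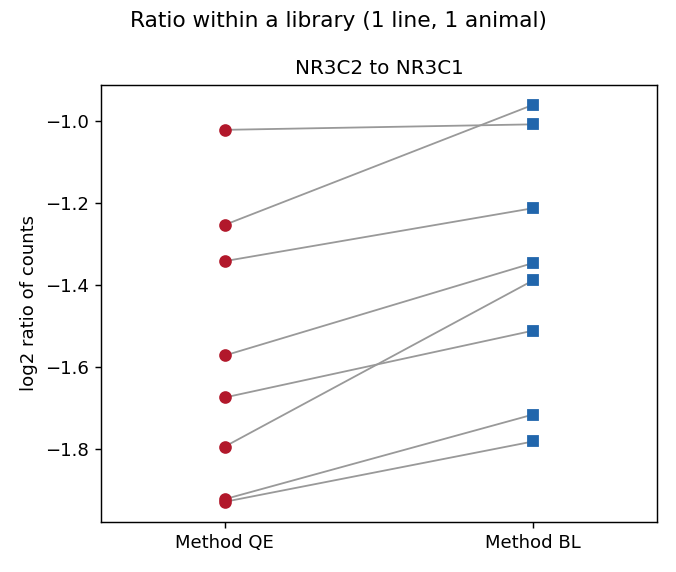
log2 ratio of counts of NR3C2 to NR3C1 (y axis) in each library, with Method QE left of Method BL and a line for each of the 8 animals. The ratio of NR3C2 to NR3C1 was lower under Method QE in all 8 animals, by 0.20 on average.

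Between animals, 12 of the 33 pathway genes tested differed, 36.4%, against 31.5% of all genes. Beside ENPEP, NR3C2 and AGT they were FKBP5, H6PD, AGTRAP, CTSD, PRCP, ZBTB16, BDKRB2, TGFB1 and TSC22D3. Animal rh2957 had the highest level in both its libraries for 6 of the 12, a count made after the values were seen. For comparison, it was highest in both libraries for 17.3% of all 4461 genes that differed between animals, and no other animal exceeded 8.61%. The 6 genes were ENPEP, CTSD, AGTRAP, BDKRB2, H6PD and FKBP5. Without animal rh2957 the number of pathway genes called between animals was 8 of 33, and it was between 9 and 14 when any other animal was left out. That is 24.2% of the pathway genes, beside 24.6% of all genes tested without rh2957, and the share of all genes was lower still, 23.6%, without r16010.

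FKBP5, a co-chaperone of steroid receptors and a target of glucocorticoids, had 670 CPM under Method QE and 441 CPM under Method BL in animal rh2957, whereas the other 7 animals had 175 to 269 CPM under Method QE and 172 to 239 CPM under Method BL. H6PD, which supplies the cofactor that lets HSD11B1 regenerate cortisol, had 326 and 238 CPM in the libraries of rh2957 under Method QE and Method BL, against 75.7 to 120 and 69.4 to 132 CPM in the others. Both libraries of rh2957 thus lay above all others for both genes, as for ENPEP. HSD11B1 itself fell below the filter on low counts and was not tested. It averaged 0.555 CPM (SD 0.535) with Method QE and 0.576 CPM (SD 0.650) with Method BL, from 211 counts over all libraries. TSC22D3 and SGK1, also targets of glucocorticoids, did not stand out in rh2957. TSC22D3 had 85.0 and 92.4 CPM there under Method QE and Method BL, within the 65.4 to 144 and 61.3 to 115 CPM of the other animals, and SGK1 had 12.3 and 22.7 CPM, also within their range. Of the 11 hormone-responsive targets tested, 4 were called between animals, 36.4%, against 31.5% of all genes. The rest, among them SGK1, PER1 (adjusted p = 0.315) and KLF9 (adjusted p = 0.127), were not called in edgeR. Among the other hormone-responsive targets called between animals, ZBTB16 had 102 and 95.7 CPM in rh2957 under Method QE and Method BL. The other animals had 54.7 to 87.0 and 56.2 to 110 CPM of ZBTB16. TGFB1 had 6.07 and 5.89 CPM in rh2957, against 6.14 to 16.5 and 7.21 to 11.1 CPM in the others. Of the 12 genes, those other than ENPEP, NR3C2, AGT and FKBP5 were named after their values were seen, as were HSD11B1, PER1 and KLF9.

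Some marker lists also set animal rh2957 apart. Its mean cardiomyocyte score, the mean log2 CPM of the 9 markers with a row, was 9.07, against 9.96 to 10.6 in the other 7 animals, and the summed level of these markers was 22523 CPM under Method QE and 12108 CPM under Method BL, against 22781 to 33901 and 17039 to 32193 CPM. Its ventricular score, 8.09, lay within the range of the others, 7.77 to 8.62. Its summed ventricular level, 20361 CPM under Method QE, lay within theirs, 15968 to 24776 CPM. Under Method BL it was 10607 CPM, below the 11028 to 20878 CPM of the others. Its endothelial score, 5.07, was just below the others, 5.09 to 5.62, with summed levels within their ranges. Its atrial score, 3.41, lay within 1.28 to 3.89. Its summed atrial level under Method BL, 137 CPM, lay above the others, 63.6 to 119 CPM. Its adipocyte score was 4.33, against 2.32 to 4.02, with LEP and CIDEC at 0 in at least 1 of the 16 libraries; the summed level of the 7 adipocyte markers, 1139 and 1214 CPM, lay within the range of the other animals under both methods (439 to 1160 and 417 to 1224 CPM). Its leukocyte score, 3.75, lay within the range of the others, 2.65 to 4.06, whereas the 10 leukocyte markers with a row summed to 461 CPM under Method QE and 718 CPM under Method BL, against 155 to 295 and 118 to 316 CPM in the others. In rh2957 the Schwann cell markers summed to 96.1 CPM under Method QE, below the 102 to 156 CPM of the others. The mesothelial markers summed to 2.15 CPM under Method QE, also below the others, 3.31 to 390 CPM. For both lists the score and the summed level under Method BL lay within the ranges of the others. So did all values of the mural, fibroblast and erythrocyte lists. The part of these lists in the levels of ENPEP and the other genes of rh2957 was not tested.

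**Figure D5:**
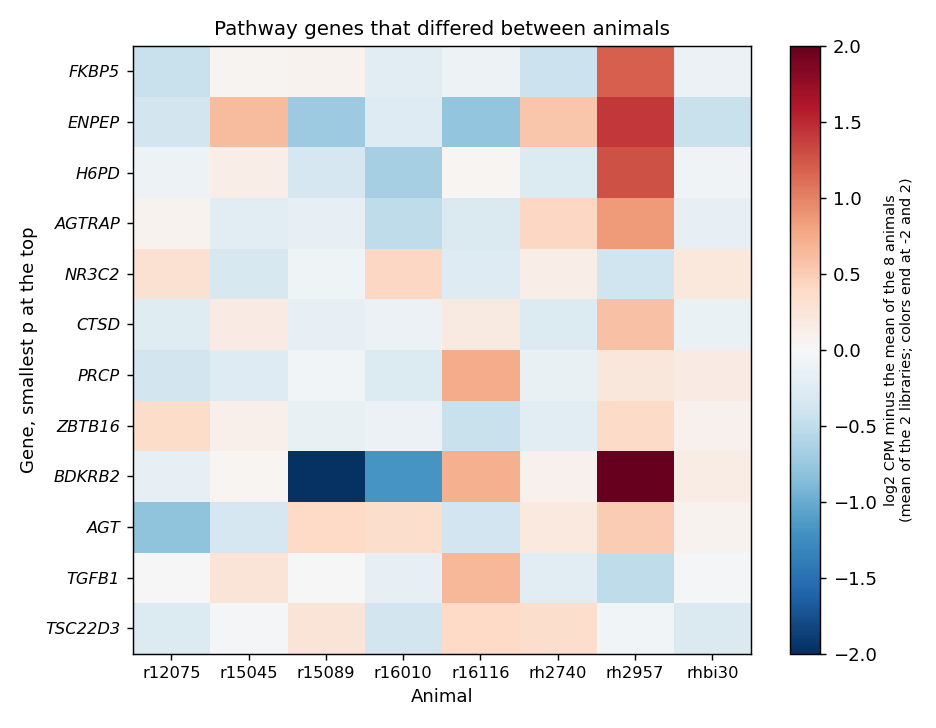
Heat map of the 12 pathway genes that differed between animals (rows, smallest p at the top) in the 8 animals (columns), with color for log2 CPM minus the mean of the animals, averaged over the Method QE and Method BL libraries. Animal rh2957 is highest in both libraries for 6 of the 12 genes, FKBP5 and ENPEP among them, and lowest in both for NR3C2 and TGFB1.

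Across the 8 animals, levels of the 5 genes were correlated with scores of 9 cell type marker lists, 45 relations in all. None passed the adjustment over the 45, and 5 had an unadjusted exact permutation p under 0.05. Those 5 included AGT with the mesothelial score (Pearson r -0.76, exact p = 0.0317, adjusted p = 0.340) and AGTR1 with the atrial score (Pearson r -0.73, exact p = 0.0378, adjusted p = 0.340). Their rho was -0.76 and -0.79 (exact p = 0.0368 and 0.0279, adjusted p = 0.516 for both). Of the mesothelial list MSLN, KRT19 and ITLN1, and of the adipocyte list LEP and CIDEC, were at 0 in at least 1 library. The highest rank correlation was that of AGT with the adipocyte score (Pearson r 0.81, exact p = 0.0134, adjusted p = 0.302; rho 0.93, exact p = 0.00223, adjusted p = 0.1004). NR3C2 with the cardiomyocyte score had r 0.69 (exact p = 0.0236, adjusted p = 0.340; rho 0.71, exact p = 0.0576, adjusted p = 0.518), and AGTR1 with the fibroblast score -0.85 (exact p = 0.00543, adjusted p = 0.244; rho -0.74, exact p = 0.0458, adjusted p = 0.516). ENPEP with the mural score, which covers pericytes and smooth muscle, had r 0.30 (exact p = 0.471, adjusted p = 0.687; rho 0.48, exact p = 0.243, adjusted p = 0.708). The ACE row with the endothelial score had r 0.30 (exact p = 0.472, adjusted p = 0.687; rho -0.05, exact p = 0.935, the same after adjustment). Without the 2 animals farthest from the median, r was 0.83 for AGT with the adipocyte score, 0.42 for NR3C2 with the cardiomyocyte score and -0.81 for AGTR1 with the fibroblast score. It was 0.41 for ENPEP with the mural score and -0.51 for the ACE row with the endothelial score. For AGT with the mesothelial score it was -0.985, and for AGTR1 with the atrial score -0.795. None of the 45 relations passed the adjustment in this setting.

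The genes whose pattern was most like each of the 5 were ranked by Pearson r over the 16 libraries after the mean of each method was removed, among 10394 genes with a symbol and a mean log2 CPM of at least 1; these libraries share animals, so the r values are descriptions. Closest to ENPEP were CREB3 (0.89), PTER (0.89), GPX3 (0.89), PNPLA6 (0.88) and AP2A1 (0.86). Among the closest to NR3C2 were ZDBF2 (0.94), DTWD2 (0.93), DDX3X (0.93) and OXCT1 (0.93). AGT was closest to OSTF1 (0.84), GOLGA5 (0.80), IER3IP1 (0.80), NDC1 (0.80) and GZF1 (0.79), and the ACE row to PPM1J (0.84), MBOAT7 (0.83), SNORD22 (0.82), TES (0.81) and FBLIM1 (0.81). AGTR1, from few counts, was closest to TXLNG (0.88), CSRNP3 (0.87), ODF2L (0.84), PTN (0.82) and RAB11FIP2 (0.82). No gene was among the 5 closest of more than 1 of the 5.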

How the data were processed

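Total RNA from FFPE cardiac tissue of 8 rhesus macaques was sequenced in 16 libraries with a stranded, rRNA-depleted kit. According to the study's methods and the submitters' processing notes, the authors used STAR 2.7.8a for alignment to Mmul_10, and the expectation-maximization quantifier of Partek Flow with an Ensembl annotation. The deposited table holds the estimated counts that the authors obtained in this way, not normalized, for 19425 genes once 1 entry broken over lines was joined. They were rounded to whole numbers for testing. An expected count shares a read among the genes it fits, so overlapping genes can exchange reads.

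Methods came from the method label and animals from the library names; the extraction protocol label gives 1 kit, that of Method QE, in every sample and was not used. The replicate numbers in the labels do not follow the animals. Pairing by animal was checked over all genes tested: the correlation of deviations from the method means was between 0.34 and 0.64 for the 8 same-animal pairs, and each library was closest to its own animal.

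Genes were filtered by filterByExpr, scaled by TMM and tested in edgeR 4.0.16 (R 4.3.3) with animal and method as terms. Differences between animals were tested on the 7 animal coefficients of that fit. Alternatives used limma 3.58.1 (voom) and DESeq2 1.42.0, other scalings and filters, no animal term, subsets of animals by library name, and each animal left out. The fits were tested on simulated data. Log2 CPM used a prior count of 2. Marker scores are mean log2 CPM over the markers tested. Permutation tests were exact. RefSeq annotation of Mmul_10 gave transcript lengths and sequences; of 137 list genes, 120 had a row.

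The genes named were the 5 members, 7 genes of the pathway given whatever they showed, and for each member genes among the 5 closest in pattern; some items are not reported here, and others are marked where named. Members, lists and tests were chosen with earlier results of these data known. The alternatives for the number of pathway genes that differed between animals were chosen after seeing the data.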

Additional observations from a re-analysis of the deposited data

Results flagged for a closer look

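AGT, ACE, ENPEP, AGTR1, NR3C2 and 6 other pathway genes (AGTR2, NR3C1, HSD11B2, SGK1, FKBP5 and ATP6AP2) were screened in each method for a single library far from the other 7. The screen was Dixon's test at the 95% level on 8 values in CPM. Chance alone passes about 1 in 20 such groups where the values are independent and normally distributed. AGTR2 was at 0 in most libraries, and the 2 groups of a gene share animals, so this rate is a rough guide only. Of the 22 groups, 3 passed for a highest library and 1 for a lowest. FKBP5 in animal rh2957 passed in both methods, at 670 CPM with Method QE and 441 CPM with Method BL. AGTR2 in animal r16116 with Method BL, at 0.660 CPM, rests on 12 counts. ATP6AP2 in animal r15045 with Method BL was the lowest of its group at 17.8 CPM. No library of the 5 genes AGT, ACE, ENPEP, AGTR1 and NR3C2 passed.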

How the results depend on the processing

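The count of 0 for the 5 genes and for the pathway genes between methods held in all 18 alternatives. The count over all genes, 303, was 5 with no replicate block (animals left out of the model), 592 with DESeq2, 49 in the 5 animals with a library name in B and 0 in the 3 in R (870 at an unadjusted p under 0.05; 3 pairs only), and 37 to 355 when 1 animal was left out. Changes of the 5 genes near 0 turned sign: AGT was -0.019 with upper quartile scaling, -0.0061 with a mean count of at least 50, -0.18 in B and -0.11 to 0.10 with 1 animal left out; ENPEP was 0.058 in B and -0.13 to 0.023 with 1 left out; AGTR1 was 0.040 without the block, 0.15 in R and -0.15 to 0.22 with 1 left out; NR3C2 was 0.030 in R. AGTR1 gives no value under a mean count of at least 50. Between animals, 2 to 3 of the 5 were called with 1 animal left out.

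Correlations between methods without the 2 animals farthest from the median were 0.86 for ENPEP, 0.84 for NR3C2, 0.76 for ACE and 0.68 for AGTR1. With 1 animal left out they were 0.79 to 0.94 for ENPEP (call lost without rh2957, adjusted p = 0.0612 by exact permutation), 0.72 to 0.88 for ACE (lost without r15045 or r16116), 0.28 to 0.80 for AGT (called without r15045) and -0.18 to 0.068 for AGTR1. The member and marker relations called were 0 to 1 with 1 animal left out (1 without r15045 or rhbi30). The ratio of NR3C2 to NR3C1 held in all 9 alternatives. The cause of these changes was not tested. AGTR1, AGTR2 and HSD11B2 rest on few counts per library.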
